A study of Mus musculus with 14 samples.

Results

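The Egr and Nr4a activation factors were followed as 6 genes, Egr1, Egr2, Egr3, Nr4a1, Nr4a2 and Nr4a3, out of 27179 genes in the count table. They were chosen by name through their Entrez gene identifiers, and all 6 had a row. The study is bulk RNA sequencing of CD4 T cells from C57BL/6 mice, started from naive cells that were activated on plate-bound antibodies to CD3 and CD28 for 3.5 days and then sorted by flow cytometry. Tfh5 cells (5 libraries) were grown in a culture for follicular helper T cells with 5 ng/ml TGF-β, TfhA cells (4 libraries, replicates 1, 2, 4 and 5) in the same kind of culture with an antibody against TGF-β, and Th1 cells (5 libraries) in a Th1 culture. All 3 groups share the strain and the activating antibodies, and the labels name neither the sort gates nor the other culture additions. No source used here says whether libraries of a group came from different mice or different wells, so the tests compare groups with the spread among these libraries, which may be technical.

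Egr1, Egr2 and Egr3 encode zinc finger transcription factors that are switched on within minutes of T cell receptor engagement, largely through Ras and ERK signalling. Nr4a1 (Nur77), Nr4a2 (Nurr1) and Nr4a3 (Nor1) encode orphan nuclear receptors that are induced by the same receptor and by calcium signals, and a Nr4a1 reporter is widely used as a gauge of antigen receptor signal strength. In CD4 T cells Egr2 and Egr3 are known for restraining effector responses and for roles in follicular helper cells, and the Nr4a factors for tolerance, regulatory T cell maintenance and T cell exhaustion.

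The start sites of 4 of the 6 genes are in RefSeq's table for GRCm38.p6 (the assembly called mm10), and the 250 bases before each are shown because Nr4a1 and Nr4a2 moved in opposite directions between cultures while their windows hold equal numbers of matches to 1 motif. Capitals mark TGACG, the core of the cyclic AMP response element, on either strand in the 3 Nr4a sequences, and the CArG box, the binding sequence of serum response factor, in the Egr2 sequence. The table lists 5 windows for Egr2, and the one shown ends at the start of its principal transcript in GENCODE M21. By the gene spans given below, the Nr4a1 and Egr2 windows lie inside the annotated gene and the Nr4a3 window mostly does. Only the Nr4a2 window lies wholly outside its gene.
Nr4a1, chr15:101266596-101266845, plus strand: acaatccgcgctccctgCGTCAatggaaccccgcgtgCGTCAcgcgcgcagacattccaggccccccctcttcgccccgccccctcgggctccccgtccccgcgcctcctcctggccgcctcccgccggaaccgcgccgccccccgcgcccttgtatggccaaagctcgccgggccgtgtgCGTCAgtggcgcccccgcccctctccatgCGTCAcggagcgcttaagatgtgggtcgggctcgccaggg
Nr4a2, chr2:57124004-57124253, minus strand: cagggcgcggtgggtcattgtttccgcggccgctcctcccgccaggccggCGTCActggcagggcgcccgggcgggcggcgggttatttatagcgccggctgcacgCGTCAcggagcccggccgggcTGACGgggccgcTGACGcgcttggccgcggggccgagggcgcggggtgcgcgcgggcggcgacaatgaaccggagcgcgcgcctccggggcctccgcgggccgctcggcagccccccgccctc
Nr4a3, chr4:48045055-48045304, plus strand: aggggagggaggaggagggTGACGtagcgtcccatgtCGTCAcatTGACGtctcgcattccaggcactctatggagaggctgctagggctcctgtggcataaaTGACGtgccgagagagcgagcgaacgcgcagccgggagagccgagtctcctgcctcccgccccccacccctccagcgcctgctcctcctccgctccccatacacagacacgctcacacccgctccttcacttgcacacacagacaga
Egr2, chr10:67537619-67537868, plus strand: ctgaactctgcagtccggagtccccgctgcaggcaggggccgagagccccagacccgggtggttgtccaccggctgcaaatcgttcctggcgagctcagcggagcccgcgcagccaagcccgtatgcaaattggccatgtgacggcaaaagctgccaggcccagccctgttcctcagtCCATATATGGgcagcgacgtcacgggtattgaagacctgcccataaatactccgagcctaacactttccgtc
Each of the 3 Nr4a windows held 4 matches to TGACG, counting both strands, and the Egr2 window held 2. Of all 32851 windows of this length 17.8% held at least 1 match and 0.137% held 4 or more. The Egr2 window held a CArG box 72 bases before the start, as 1.47% of all windows did, and the Nr4a windows had no match to it. GCGNGGGCG, the sequence that Egr proteins bind, matched once in the Nr4a1 window and once in the Nr4a2 window (4.70% of all windows). A match to the binding sequence of the MEF2 factors lay in the Nr4a2 window and in no other of the 4 (2.92% of all windows), and AAAGGTCA, the sequence that single Nr4a proteins bind, had no match in the 4 windows (1.34% of all windows). None of these matches overlapped another. A match describes letters only, and binding was not measured.

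Library totals ran from 8805921 to 16108059 counts, and the 6 genes had between 95 and 5082 counts in every library. The labels held for Th1 and Tfh5 but not in every marker for TfhA: Ifng, the Th1 cytokine, was at 0.510 to 1.33 CPM in Tfh5, 8.45 to 31.2 CPM in TfhA and 493 to 708 CPM in Th1, and Maf and Il17f were at 1298 to 1608 and 2892 to 3839 CPM in Tfh5 against at most 35.7 and 18.9 CPM elsewhere. Bcl6, the regulator that defines follicular helper cells, was at 79.1 to 123 CPM in Tfh5, 11.5 to 22.3 CPM in TfhA and 9.82 to 17.0 CPM in Th1, and Cxcr5, the follicle-homing chemokine receptor gene, at 73.0 to 87.6, 0.637 to 2.81 and 0.756 to 2.63 CPM. Neither passed in TfhA against Th1 (adjusted p = 0.0610 and 0.720 in edgeR), so TfhA names a culture here and not cells with the follicular helper markers. CPM are counts relative to the library total after TMM scaling. The T cell genes Cd3e and Cd4 were at 358 CPM or more in all 14 libraries. Of the markers of other cells, the 11 for monocytes, macrophages and dendritic cells summed to 12.9 to 20.1 CPM in Tfh5, 66.7 to 128 CPM in TfhA and 242 to 306 CPM in Th1, with Adgre1 at 0 in all 3 groups, Lyz2 at 0 in Tfh5 and TfhA, H2-Aa at 0 in Tfh5 and Itgax at 0 in Th1. The 10 B cell markers summed to 193 to 239, 80.7 to 102 and 66.4 to 77.7 CPM in Tfh5, TfhA and Th1 with Pax5 at 0 in Th1, the 8 CD8 and NK cell markers to 66.8 to 112, 64.8 to 95.2 and 57.2 to 101 CPM with Ncr1 at 0 in all 3, Klrg1 at 0 in Tfh5 and Th1 and Klrb1c at 0 in TfhA, and the 6 γδ T cell markers to 8.07 to 17.4, 42.7 to 107 and 5.44 to 9.43 CPM with Zbtb16 at 0 in TfhA. Single genes made up much of these sums. Cd74 averaged 6.84, 60.5 and 175 CPM in Tfh5, TfhA and Th1, while H2-Aa averaged 6.99 CPM in TfhA and 0.361 CPM in Th1. The B cell marker Ighm averaged 211, 65.8 and 41.1 CPM in Tfh5, TfhA and Th1, and Ebf1 0.526, 17.2 and 29.3 CPM. Of 8 tested B cell markers, 2 were higher and 5 lower in Tfh5 than in TfhA (27.4% and 30.1% of all tested genes). Of 4 tested γδ T cell markers, 0 were higher and 3 lower in Tfh5 than in TfhA. In TfhA against Th1, 4 were higher and 0 lower (23.2% and 21.6% of all tested genes). The γδ T cell marker Trdc averaged 11.8, 53.5 and 5.54 CPM in Tfh5, TfhA and Th1. The part of these markers in the results was not tested. In bulk RNA, fewer cells of a type and less RNA per cell cannot be told apart.

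**Figure D1:**
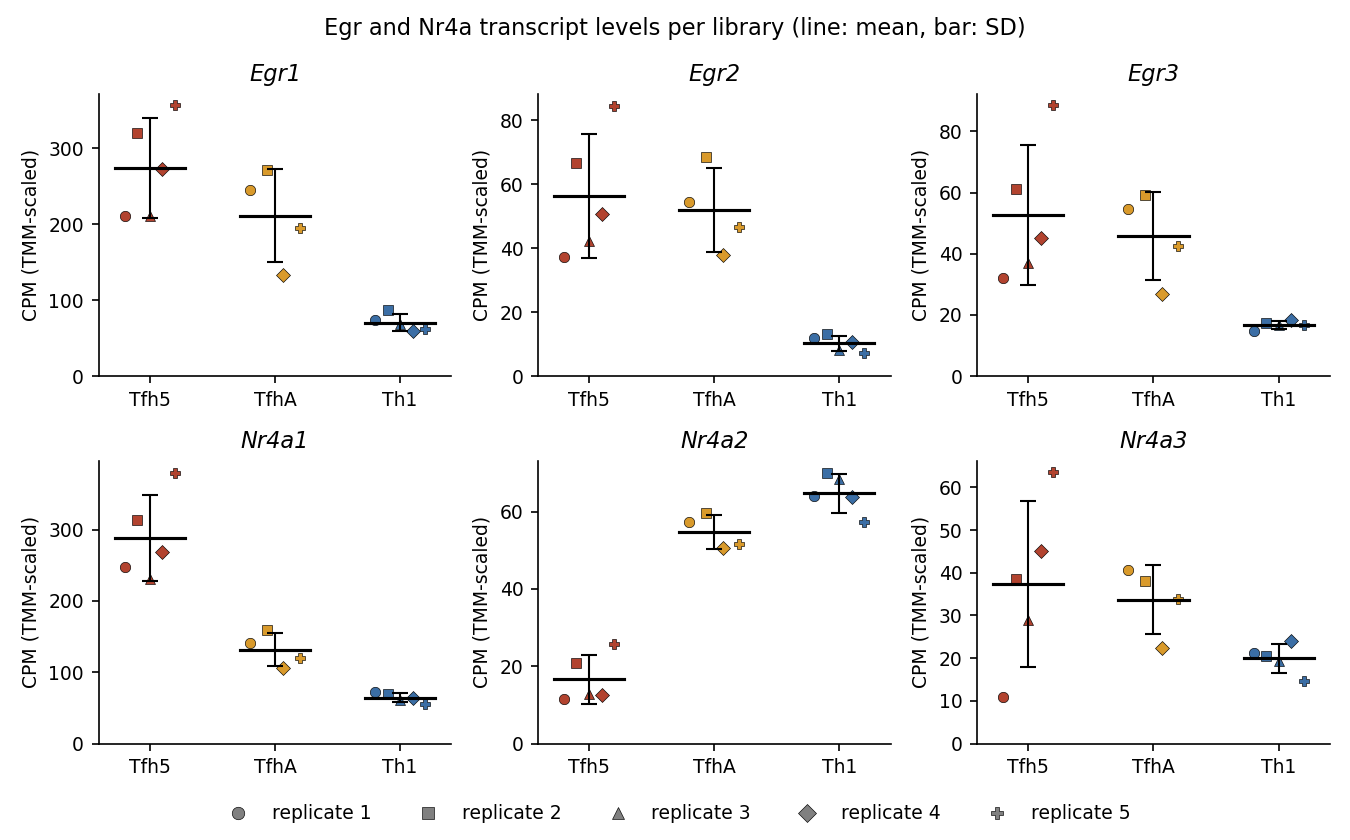
Transcript level (CPM, linear axes from 0) of the 6 genes in each library of Tfh5, TfhA and Th1, with symbols for replicates, a line at the mean and a bar for the SD. All 3 Egr genes and Nr4a1 sit lowest in Th1, where Nr4a2 sits highest, and Nr4a2 is at 11.4 to 25.9 CPM in Tfh5.

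The comparison of Tfh5 with TfhA asks what TGF-β does to these genes in follicular helper culture. Of the 6 genes, Nr4a1 was higher in Tfh5 (2.19-fold), Nr4a2 was lower (3.26-fold), and Egr1, Egr2, Egr3 and Nr4a3 did not pass the threshold, an adjusted p under 0.05 over all 13075 tested genes by edgeR's quasi-likelihood test. In the same comparison 57.5% of all tested genes passed, so 2 of 6 is a smaller share than the background. The median log2 fold change was 0.18 over the 6 genes and -0.01 over all tested genes. Nr4a1 and Nr4a2 were also the 2 genes whose libraries did not overlap between the groups. Of all tested genes 44.2% did not overlap, 20.8% with Tfh5 higher and 23.4% with Tfh5 lower.

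TfhA against Th1, the comparison of follicular helper culture without TGF-β signal with Th1 culture, gave a broader difference. Egr2 was 5.07-fold, Egr1 3.01-fold, Egr3 2.74-fold, Nr4a1 2.05-fold and Nr4a3 1.69-fold higher in TfhA, and Nr4a2 did not pass. That is 5 of 6 genes higher and none lower, where 44.8% of all tested genes passed, 23.2% higher and 21.6% lower. The median log2 fold change was 1.25 over the 6 genes, against 0.03 over all tested genes. Only 1.71% of all tested genes had a higher log2 fold change than Egr2, and the libraries did not overlap for Egr1, Egr2, Egr3 and Nr4a1 (38.1% of all tested genes, 19.3% with TfhA higher).

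In Tfh5 against Th1, all 6 genes passed: Egr2 (5.49-fold), Nr4a1 (4.48-fold), Egr1 (3.90-fold), Egr3 (3.16-fold) and Nr4a3 (1.88-fold) were higher in Tfh5, and Nr4a2 was 3.85-fold lower. Of all tested genes 64.6% passed, 31.5% higher and 33% lower. The median log2 fold change was 1.81 over the 6 genes and -0.01 over all tested genes. Apart from Nr4a3, the libraries of the 2 groups did not overlap (50.2% of all tested genes, 23.7% with Tfh5 higher and 26.5% with Tfh5 lower). The 3 comparisons share libraries, so their values stand side by side and are not independent of each other.

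**Figure D2:**
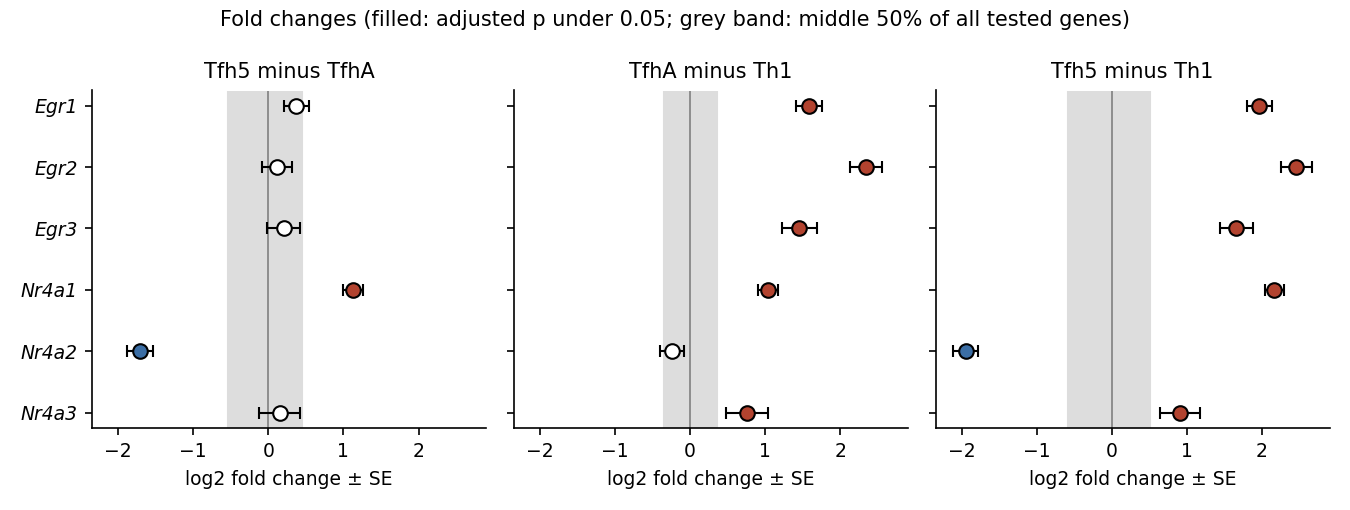
Log2 fold change ± SE of each gene in the 3 comparisons, positive where the first-named group is higher, with filled points for genes that passed and a grey band for the interquartile range of all tested genes. In Tfh5 minus TfhA the points of 4 genes are open, while Nr4a1 at 1.13 and Nr4a2 at -1.71 lie on opposite sides of 0.

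Egr1 (Entrez gene 13653, mm10 chromosome 18, 34861207 to 34864956, plus strand) is the founding member of its family and an immediate target of ERK signalling. It had 210.3, 319.8, 210.3, 273 and 357 CPM in Tfh5 replicates 1 to 5, 245, 271, 133 and 196 CPM in TfhA replicates 1, 2, 4 and 5, and 73.7, 87.6, 68.9, 59.0 and 62.2 CPM in Th1 replicates 1 to 5. Tfh5 and TfhA libraries were intermixed, and all of them lay above the highest Th1 library. Against TfhA the log2 fold change of Egr1 in Tfh5 was 0.37 ± 0.17 (SE, adjusted p = 0.0642), which did not pass. It did pass in some other settings, among them with no filter on low counts (adjusted p = 0.00981), without TfhA replicate 1 (0.0488) or 2 (0.0152) and without Tfh5 replicate 1 (0.0238) or 3 (0.0302), within adjusted p = 0.00981 to 0.287 over all settings in edgeR and DESeq2. Against Th1 the log2 fold changes were 1.59 ± 0.17 in TfhA and 1.96 ± 0.17 in Tfh5, with adjusted p-values of 4.90e-08 and 1.83e-10 in edgeR.

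Egr2 (Entrez gene 13654, chromosome 10, 67534469 to 67542188, plus strand) encodes the member best known for restraining T cell activation and supporting the follicular helper regulator Bcl6. It had 37.2, 66.6, 42.4, 50.8 and 84.4 CPM in Tfh5 replicates 1 to 5, 54.5, 68.6, 38.0 and 46.5 CPM in TfhA replicates 1, 2, 4 and 5, and 11.8, 13.1, 8.24, 10.7 and 7.23 CPM in Th1 replicates 1 to 5. Every library of either follicular helper culture was far above the highest Th1 library, while Tfh5 and TfhA were intermixed. The log2 fold change was 2.34 ± 0.21 in TfhA over Th1 and 2.46 ± 0.21 in Tfh5 over Th1 (adjusted p = 2.53e-09 and 1.44e-10 in edgeR). Between Tfh5 and TfhA it was 0.12 ± 0.20 (adjusted p = 0.646), and it was -0.078 ± 0.187 without Tfh5 replicate 5 and -0.0069 ± 0.212 without TfhA replicate 4.

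Egr3 (Entrez gene 13655, chromosome 14, 70077317 to 70082613, plus strand) encodes a factor with functions that overlap those of Egr2 in T cells. It had 31.99, 61.1, 37.0, 45.2 and 88.7 CPM in Tfh5 replicates 1 to 5, 54.5, 59.2, 26.7 and 42.6 CPM in TfhA replicates 1, 2, 4 and 5, and 14.8, 17.3, 16.7, 18.2 and 16.6 CPM in Th1 replicates 1 to 5. The coefficient of variation was 43.4% in Tfh5, 31.7% in TfhA and 7.46% in Th1, whose libraries lay close together and below all others. Egr3 was higher than in Th1 by 1.46 ± 0.23 in TfhA and 1.66 ± 0.22 in Tfh5 on the log2 scale (adjusted p = 1.28e-05 and 3.76e-07 in edgeR). Tfh5 over TfhA gave 0.20 ± 0.22 (adjusted p = 0.452), and -0.067 ± 0.193 without Tfh5 replicate 5.

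Per length, in RPKM (CPM per kilobase of exon), Egr1 was the most abundant Egr transcript in every library and made up 68.8% ± 3.11 of the Egr total in Tfh5, 64.6% ± 1.10 in TfhA and 69.6% ± 2.95 in Th1 (SD, n = 5, 4 and 5). The balance between Egr2 and Egr3 differed with the culture. Egr2 held 18.2% ± 1.21 in Tfh5, 21.3% ± 1.92 in TfhA and 13.3% ± 2.15 in Th1, and Egr3 held 12.97% ± 1.94, 14.1% ± 0.845 and 17.2% ± 2.66. The log2 ratio of Egr3 to Egr2 averaged -0.50 in Tfh5 and -0.59 in TfhA but 0.37 in Th1, with no overlap between Th1 and either other group. Both differences from Th1 had the smallest p-value these group sizes allow (exact permutation test, two-sided, p = 0.00794, adjusted p = 0.0159 over 18 ratio tests). TfhA against Th1 no longer passed without TfhA replicate 2, 4 or 5 (adjusted p = 0.0536 each, exact permutation test). The difference was then -0.95, -0.85 and -0.98, against -0.95 with all libraries, and fewer libraries allow fewer regroupings. The log2 ratio of Egr2 to Egr1 was higher than in Th1 by 0.79 in TfhA and by 0.48 in Tfh5. Both passed (adjusted p = 0.0159 and 0.0260, exact permutation test), also in each of 10 and 11 other settings. Egr2 relative to Egr1 fell by 0.31 on the log2 scale in Tfh5 against TfhA (adjusted p = 0.0440, exact permutation test). That call was lost without TfhA replicate 2, 4 or 5 and without Tfh5 replicate 1, 2, 3 or 4 (adjusted p up to 0.0918, exact permutation test).

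The corepressors Nab1 and Nab2 bind Egr proteins and curb their activity, and Nab2 is itself an Egr target. Nab1 averaged 149 ± 5.35 CPM in Tfh5, 154 ± 9.08 in TfhA and 97.4 ± 8.58 in Th1, and was higher than in Th1 in both (1.53-fold in Tfh5 and 1.58-fold in TfhA). Nab2 averaged 47.4 ± 8.75 CPM in Tfh5, 62.8 ± 13.4 in TfhA and 51.9 ± 6.36 in Th1, and was 1.33-fold lower in Tfh5 than in TfhA (adjusted p = 0.0138 in edgeR). Egr4, the remaining family member, had 32, 39 and 6 counts over the Tfh5, TfhA and Th1 groups and was removed by the filter on low counts.

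Nr4a1 (Entrez gene 15370, chromosome 15, 101253902 to 101274795, plus strand) encodes Nur77. It had 247, 313, 231, 269 and 379.8 CPM in Tfh5 replicates 1 to 5, 141, 159, 106 and 120.1 CPM in TfhA replicates 1, 2, 4 and 5, and 72.3, 69.0, 60.6, 63.7 and 55.9 CPM in Th1 replicates 1 to 5. The 3 groups formed separate steps with no overlap, Tfh5 above TfhA above Th1. Each step was close to a doubling: the log2 fold change was 1.13 ± 0.13 for Tfh5 over TfhA, 1.03 ± 0.13 for TfhA over Th1 and 2.16 ± 0.13 for Tfh5 over Th1, with adjusted p-values of 9.75e-08, 6.89e-07 and 1.92e-13 in edgeR. All 3 calls held in each of 20 other settings.

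Nr4a2 (Entrez gene 18227, chromosome 2, 57106830 to 57124003, minus strand) encodes Nurr1. It had 11.4, 20.8, 12.8, 12.6 and 25.9 CPM in Tfh5 replicates 1 to 5, 57.3, 59.7, 50.6 and 51.6 CPM in TfhA replicates 1, 2, 4 and 5, and 64.0, 70.1, 68.4, 63.8 and 57.3 CPM in Th1 replicates 1 to 5. Every Tfh5 library was below every other library, and TfhA and Th1 were next to each other with a slight overlap. Nr4a2 fell by 1.71 ± 0.17 on the log2 scale in Tfh5 against TfhA and by 1.95 ± 0.16 against Th1 (adjusted p = 5.01e-09 and 1.47e-10 in edgeR). Both calls held in each of 20 other settings. TfhA against Th1 gave -0.24 ± 0.16 (adjusted p = 0.244), which passed only when the Tfh5 libraries were left out of the fit (-0.26 ± 0.10, adjusted p = 0.0306, within 0.0306 to 0.396 over all settings in edgeR and DESeq2). Summed markers of monocytes, macrophages and dendritic cells (12.9 to 20.1, 66.7 to 128 and 242 to 306 CPM in Tfh5, TfhA and Th1) and 9 heat shock and handling genes (1936 to 2100.4, 2801 to 3287 and 3787 to 4489 CPM) were lowest in Tfh5 as well. Cd74 and H2-Ab1 made up much of the first sum, averaging 175 and 75.9 CPM in Th1. Hsp90ab1 made up much of the second, averaging 1590, 2433 and 3322 CPM in Tfh5, TfhA and Th1. Of 6 tested genes in the first list, 0 were higher and 5 lower in Tfh5 than in TfhA (27.4% and 30.1% of all tested genes). In TfhA against Th1, 2 were higher and 2 lower (23.2% and 21.6%). The part of these genes in the level of Nr4a2 was not tested.

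Nr4a3 (Entrez gene 18124, chromosome 4, 48045078 to 48086447, plus strand) encodes Nor1 and had the widest spread in Tfh5. It had 10.9, 38.4, 29.0, 45.0 and 63.5 CPM in Tfh5 replicates 1 to 5, 40.5, 38.1, 22.3 and 33.9 CPM in TfhA replicates 1, 2, 4 and 5, and 21.3, 20.5, 19.4, 23.9 and 14.6 CPM in Th1 replicates 1 to 5. Tfh5 replicate 1 was below all Th1 libraries while the other Tfh5 libraries were above them, and the coefficient of variation in Tfh5 was 52.1%. Nr4a3 was higher than in Th1 by 0.91 ± 0.27 in Tfh5 (adjusted p = 0.00431) and by 0.76 ± 0.28 in TfhA (adjusted p = 0.0299 in edgeR). The second call was lost, among other settings, with DESeq2 (adjusted p = 0.117), without Th1 replicate 3 (0.0518) or 5 (0.0735), and without TfhA replicate 1 (0.0944), 2 (0.0670) or 5 (0.0505), within adjusted p = 0.000937 to 0.117 over all settings. Between Tfh5 and TfhA it was 0.15 ± 0.28 (adjusted p = 0.670 in edgeR), -0.13 ± 0.26 without Tfh5 replicate 5 and -0.0024 ± 0.297 without TfhA replicate 4.

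The make-up of the Nr4a family differed with the culture. Nr4a1 made up 89.2% ± 2.80 of the Nr4a total in RPKM in Tfh5, 66.1% ± 1.53 in TfhA and 48.7% ± 1.96 in Th1, and Nr4a2 made up 4.35% ± 0.719, 24.1% ± 2.04 and 42.5% ± 2.11 (SD, n = 5, 4 and 5). Nr4a3 stayed the smaller part, at 6.49% ± 2.50, 9.85% ± 1.38 and 8.82% ± 1.10. The family total was 92.4 ± 21.3 RPKM in Tfh5, 56.7 ± 8.93 in TfhA and 37.6 ± 3.13 in Th1. Per length, Nr4a1 and Nr4a2 were at 82.1 ± 17.1 and 4.12 ± 1.56 RPKM in Tfh5, 37.5 ± 6.69 and 13.5 ± 1.09 RPKM in TfhA, and nearly level at 18.3 ± 1.87 and 15.9 ± 1.22 RPKM in Th1.

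A ratio taken within a library does not depend on how libraries are scaled. The log2 ratio of Nr4a2 to Nr4a1 was -4.64 to -4.08 in Tfh5, -1.63 to -1.28 in TfhA and -0.39 to -0.04 in Th1, 3 ranges with no overlap. It fell by 2.91 in Tfh5 against TfhA, a 7.50-fold difference, by 1.26 in TfhA against Th1 and by 4.17 in Tfh5 against Th1, a 17.99-fold difference. Each of the 3 had p = 0.00794, the smallest p-value these group sizes allow (exact permutation test, two-sided, adjusted p = 0.0159 over 18 ratio tests), and passed in each of 10, 10 and 11 other settings. Nr4a3 rose relative to Nr4a2 by 1.76 in Tfh5 against TfhA and by 0.98 in TfhA against Th1 (adjusted p = 0.0260 and 0.0159, exact permutation test). The first no longer passed without TfhA replicate 4, where the rise was 1.61 (adjusted p = 0.0536, exact permutation test). In all, 13 of the 18 ratio tests passed.

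**Figure D3:**
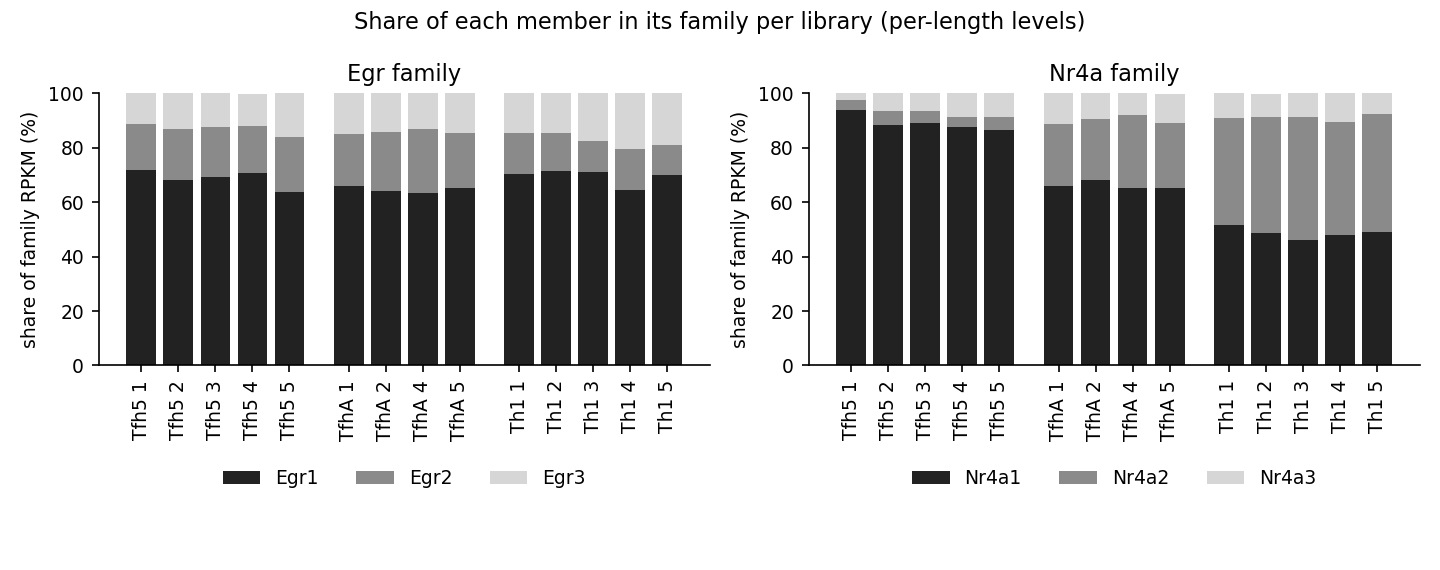
Share of each gene in the summed RPKM of its family (percent, bars from 0 to 100) in every library, Egr family on the left and Nr4a family on the right, with Tfh5, TfhA and Th1 libraries in order. The Nr4a2 segment shrinks to 4.35% on average in Tfh5, while the Egr1 segment stays between 63.3% and 72.0% in all libraries.

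Although Nr4a2 took the opposite course between cultures, it moved with the other 5 genes among libraries of 1 culture. After each library's log2 CPM was set against the mean of its own group, all 15 pairs of the 6 genes correlated positively over the 14 libraries, with Pearson's r from 0.67 (Egr1 with Nr4a3) to 0.95 (Egr2 with Nr4a1). For Nr4a2 these within-group r values were 0.70 to 0.84, while across all 14 libraries, group differences included, they were -0.82 to -0.13. Among all other tested genes, 1.93% had a within-group r with Nr4a2 of at least 0.70, its lowest r with the other 5. The cut-off was set for each gene by its own lowest r. The share ran from 0.903% for Egr3 (cut-off 0.79) to 6.72% for Nr4a3 (cut-off 0.67). The values share their library and its scaling factor, so they are a description.

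Some libraries stood out for the whole set. Tfh5 replicate 5 was the highest Tfh5 library for 6 of 6 genes, TfhA replicate 4 the lowest TfhA library for 6 of 6, and Tfh5 replicate 1 the lowest Tfh5 library for 5 of 6. Tfh5 replicate 5 was 0.41 (Egr1) to 0.98 (Nr4a3) above its group's mean log2 CPM. In that library 1.82% to 8.86% of all tested genes lay further above their own group mean, with downward deviations not counted. It also had the highest total of its group (13316633 counts against 9766313 to 10635657), and TfhA replicate 4 had the lowest total of all libraries (8805921). The summed level of 18 other immediate early genes was 2159 CPM in Tfh5 replicate 5, the lowest of its group, against 2184 to 2490 CPM in the other Tfh5 libraries. Whether depth plays a part was not tested. Without Tfh5 replicate 5 the within-group r values were 0.54 to 0.93, and the same numbers of genes passed in each comparison, 2, 5 and 6, as they also did without TfhA replicate 4.

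**Figure D4:**
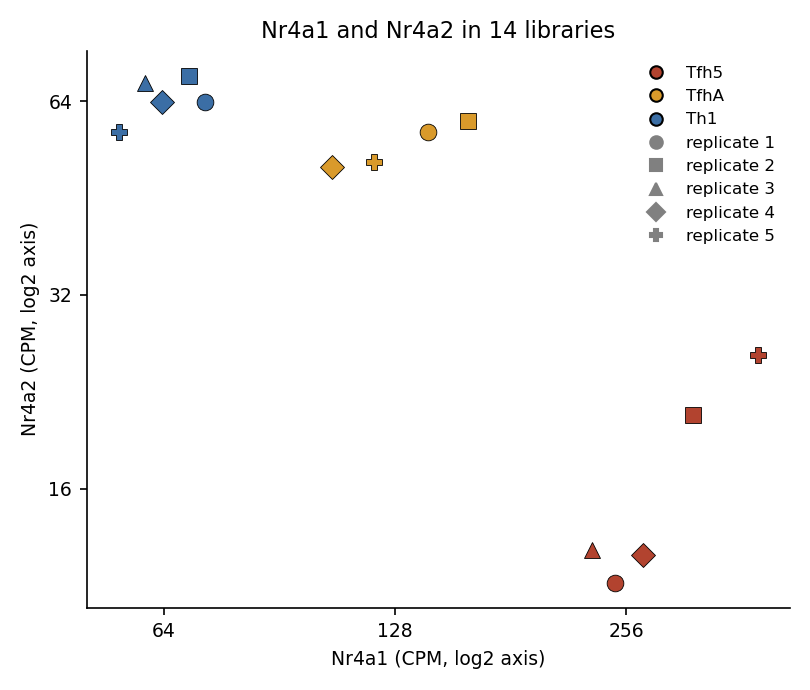
Nr4a2 against Nr4a1 (CPM, both axes on a log2 scale) in 14 libraries, coloured by culture and with symbols for replicates. The cultures run from high Nr4a1 and low Nr4a2 in Tfh5 (lower right) to the reverse in Th1 (upper left), while within a culture the points with more Nr4a1 tend to have more Nr4a2.

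**Figure D5:**
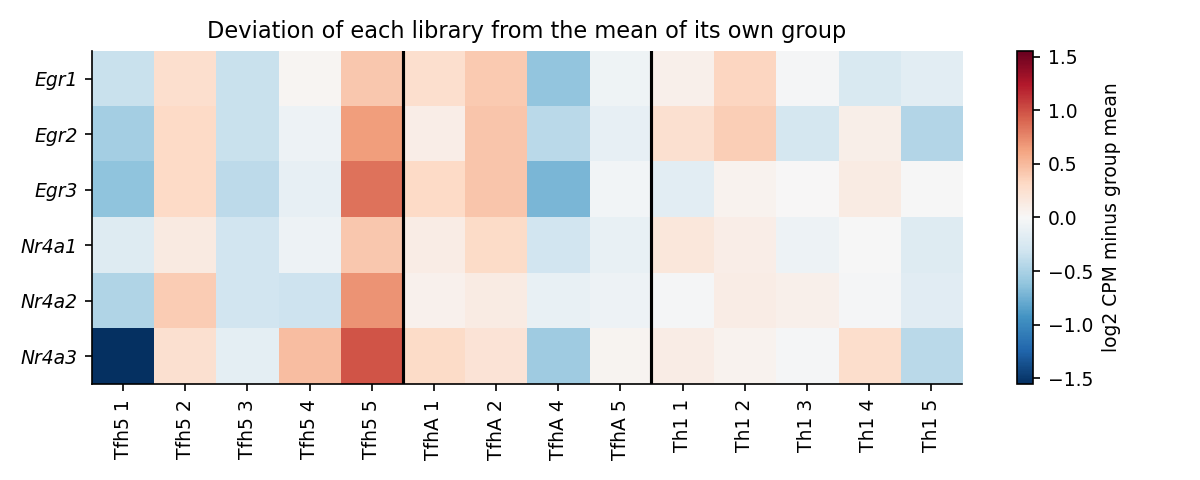
Log2 CPM of each gene in each library minus the mean of that library's own group, red above and blue below, with black lines between Tfh5, TfhA and Th1. Tfh5 replicate 5 is red for all 6 genes, and TfhA replicate 4 is blue for all 6, with Tfh5 replicate 1 lowest for Nr4a3 at -1.56.

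The genes with the most similar pattern were taken as the 3 highest Pearson correlations of log2 CPM with each gene over the 14 libraries, among 9564 genes, a measure that takes in the differences between the cultures. Egr1, Egr2 and Egr3 shared Spry1, an inhibitor of Ras and ERK signalling, at r = 0.99, 0.98 and 0.96. Dusp6, a phosphatase that switches off ERK, was among the 3 for Egr2 (0.98), with Cdh23, a cadherin (0.99), and the nucleoside transporter gene Slc29a1 was among those for Egr1 (0.98). Nr4a1 was closest to Nfatc1, a calcium-regulated transcription factor (0.99), Ddr1, a collagen receptor (0.99), and Tox, a transcription factor of persistently stimulated T cells (0.99). Nr4a2 was closest to Ehd2 and Snx9, which act in endocytosis, and to the co-chaperone gene Bag2 (0.99, 0.98 and 0.98), and Nr4a3 to Arid5b, Plekha5 and Strn (0.94, 0.93 and 0.93). Within groups the r values of these 18 pairs were 0.75 (Dusp6 with Egr2) to 0.96 (Arid5b with Nr4a3). The nearest genes depended on the measure: by Spearman's rho, 0 of the 3 were the same for Egr1 and Nr4a2, 1 for Egr3 (Spry1), Nr4a1 (Nfatc1) and Nr4a3 (Arid5b), and 2 for Egr2 (Cdh23 and Dusp6).

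Factors that act upstream of these genes, 18 in the list, include serum response factor with its Elk partners, MEF2 with its repressors Cabin1 and Hdac7, CREB factors and NFAT. Each gene given with a fold here and for the lists after it passed edgeR's test. In Tfh5 against TfhA, 8 rose and 2 fell (27.4% and 30.1% of all tested genes), with a median log2 fold change of 0.29. Elk1 (2.24-fold) and Elk3 (1.93-fold), partners of serum response factor, were among those higher in Tfh5. In TfhA against Th1, 4 rose and 3 fell (23.2% and 21.6% of all tested genes), with Creb1 1.82-fold higher and Crem, an early inducible CREB relative, 3.76-fold lower (177 ± 27.3 against 666 ± 77.6 CPM). Tfh5 against Th1 gave 10 higher and 4 lower (31.5% and 33% of all tested genes), among them Nfatc1, 2.48-fold higher (385 ± 63.8 against 155 ± 8.83 CPM). Srf itself did not pass in any of the 3 comparisons.

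Of 27 genes of T cell receptor proximal signalling, 15 were higher and 6 lower in Tfh5 than in TfhA, where 27.4% of all tested genes were higher and 30.1% lower. In TfhA against Th1, 18 were higher and 3 lower (23.2% and 21.6% of all tested genes), and in Tfh5 against Th1, 21 higher and 3 lower (31.5% and 33%). Their median log2 fold changes were 0.30, 0.35 and 0.68. Plcg1, the phospholipase that releases calcium, averaged 214 ± 44.5 CPM in Tfh5 and 67.6 ± 6.67 in TfhA (3.17-fold higher). Rasgrp1, the exchange factor that activates Ras, went the other way, at 117 ± 12.7 CPM in Tfh5 and 384 ± 32.1 in TfhA (3.28-fold lower). Among negative regulators, Ubash3b was 2.87-fold higher in Tfh5 than in TfhA, and Ptpn22 was 2.003-fold higher in TfhA and 3.27-fold higher in Tfh5 than in Th1.

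The 18 other immediate early genes did not move as a block. In Tfh5 against TfhA, 7 rose and 8 fell (27.4% and 30.1% of all tested genes), with a median log2 fold change of -0.19. In TfhA against Th1, 6 rose and 8 fell (23.2% and 21.6%), with a median of -0.05, and in Tfh5 against Th1, 8 rose and 10 fell (31.5% and 33%), with a median of -0.29. Fos, an AP-1 component, was at 21.4 ± 2.97 CPM in Tfh5, 10.5 ± 3.14 in TfhA and 3.56 ± 1.46 in Th1. Atf3, a stress-inducible factor, had the reverse order, at 1.10 ± 0.954, 24.7 ± 4.65 and 85.1 ± 4.48 CPM, 21.0-fold lower in Tfh5 than in TfhA. Zfp36, which destabilises cytokine messenger RNA, was 3.53-fold higher in Tfh5 than in TfhA.

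Genes linked to Egr2 and Egr3 in T cells, 19 tested of 22 listed, were called in both directions, as all tested genes were: 7 higher and 9 lower in Tfh5 against TfhA (27.4% and 30.1% of all tested genes), 6 and 7 in TfhA against Th1 (23.2% and 21.6%), and 8 and 9 in Tfh5 against Th1 (31.5% and 33%). Nrn1, a marker of anergic T cells, averaged 23.5 ± 3.48 CPM in Tfh5 and 610 ± 76.3 in TfhA (26.0-fold lower), and Tnfrsf9, the costimulatory receptor 4-1BB, 39.0 ± 5.86 and 260 ± 33.9 CPM (6.68-fold lower). Crtam, an adhesion receptor, was 15.2-fold higher in TfhA than in Th1 (36.5 ± 1.46 against 2.40 ± 0.619 CPM) and 11.9-fold lower in Tfh5 than in TfhA. Of 21 tested genes linked to Nr4a factors, 8 rose and 11 fell in Tfh5 against TfhA (27.4% and 30.1% of all tested genes). In TfhA against Th1, 6 rose and 11 fell (23.2% and 21.6%). In Tfh5 against Th1, 7 rose and 11 fell (31.5% and 33%). Tox2, a relative of Tox, averaged 23.2 ± 5.23 CPM in Tfh5 and 2.698 ± 0.934 in TfhA (8.51-fold higher), and Il2 8.40 ± 2.09 and 64.6 ± 20.8 CPM (7.66-fold lower). Median log2 fold changes of the 2 lists lay between -0.49 and 0.20 in all 3 comparisons.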

How the data were processed

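The deposited values are raw counts per Entrez gene in 14 libraries, with no normalization by the authors. The submitters' processing notes name STAR 2.7.2b, featureCounts 1.6.4 and mm10. Annotation, strand and multi-mapping settings: not given in the sources used here. No other annotated exon (GENCODE M21) overlapped those of the 6 genes. Per the labels' protocols, libraries were made with Lexogen's SENSE mRNA kit from sorted cells.

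Counts of all 14 libraries entered one edgeR 4.0.16 quasi-likelihood fit (R 4.3.3) with group means, filterByExpr (13075 genes kept) and TMM. The test was two-sided with Benjamini-Hochberg adjustment over all tested genes, checked on simulated data. The SE is the log2 fold change divided by the square root of F. Log2 CPM carry a prior count of 2. RPKM use exon length from GENCODE M21. Ratios within a library add 0.5 to each count and were compared by exact permutation over all regroupings (126 or 252). Replicates differed by more than counting error (chi-square per degree of freedom 4.30 to 32.6 over 26 pairs), so errors are SD between libraries or SE. Symbols come from RefSeq (25275 of 27179 genes matched; those without a symbol hold 1.91% of counts). Alternatives were DESeq2 1.42.0, DESeq2 size factors, no filter, 2-group fits, replicate number as a block, GC correction and each library left out.

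The 6 genes and the 13 other lists were chosen with earlier results of these data known. Genes named from a list are up to 3 that passed per comparison, by size of change, with at least 5 CPM in a group. Srf was named after its values were seen. Genes of similar pattern needed a mean of 5 CPM.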

Additional observations from a re-analysis of the deposited data

Results flagged for a closer look

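The log2 ratio of Nr4a3 to Nr4a1 in Tfh5 had 1 library far from the others. It was -5.27 in replicate 1 and -3.80 to -3.35 in replicates 2 to 5, a gap of 0.768 of the whole range, above Dixon's critical value of 0.71 for 5 libraries. Tfh5 replicate 1 had 114 counts of Nr4a3, against 307 to 850 in the other Tfh5 libraries, and 2596 counts of Nr4a1. Of 36 groups of values examined in this way, this was the 1 marked, where chance marks about 1 in 20. The difference in this ratio, Tfh5 minus TfhA, was -1.15 on the log2 scale with all libraries and -0.81 without Tfh5 replicate 1.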

How the results depend on the processing

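Of the 6 genes, 2 to 3 passed in Tfh5 against TfhA, 4 to 6 in TfhA against Th1 and 6 in Tfh5 against Th1. These ranges are over 20 settings, and a limit of 1.5 times the reported count allows single changed calls among so few genes. All 180 numbers of all genes, of the 6 genes and of list genes that passed stayed within that limit in these settings. Calls of Egr1, Egr2, Egr3 and Nr4a1 against Th1, of Nr4a3 in Tfh5 against Th1, of Nr4a1 and Nr4a2 in Tfh5 against TfhA and of Nr4a2 in Tfh5 against Th1 held in each. Of log2 fold changes between Tfh5 and TfhA, Egr1 passed with no filter (0.39), and over single left-out libraries Egr1 ranged from 0.21 to 0.52, Egr2 from -0.078 to 0.28 (-0.0069 without TfhA replicate 4), Egr3 from -0.067 to 0.35 and Nr4a3 from -0.13 to 0.39 (-0.0024 without TfhA replicate 4). Between TfhA and Th1, Nr4a2 passed with only these groups fitted (-0.26), and Nr4a3 did not pass with DESeq2 (0.74) and ranged from 0.66 to 0.91 over left-out libraries.

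Replicate number as a block, although same-numbered libraries did not deviate together (13 pairs, r from -0.05 to 0.16), gave 7258, 5521 and 8285 called genes in the 3 comparisons. Among the 6 genes, Egr1 in Tfh5 against TfhA then passed (0.45 ± 0.15, adjusted p = 0.0156 in edgeR) and Nr4a3 in TfhA against Th1 did not (0.72 ± 0.30, adjusted p = 0.0591 in edgeR); the block changed no other call.

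Over left-out libraries, differences in log2 ratios for Tfh5 minus TfhA ranged from -0.37 to -0.24 for Egr2 to Egr1, -0.33 to -0.15 for Egr3 to Egr1, -0.014 to 0.15 for Egr3 to Egr2, -1.29 to -0.81 for Nr4a3 to Nr4a1 and 1.55 to 2.03 for Nr4a3 to Nr4a2. They ranged from -1.06 to -0.84 for Egr3 to Egr2 and from -0.35 to -0.20 for Nr4a3 to Nr4a1 in TfhA minus Th1, and from -0.49 to -0.29 for Egr3 to Egr1 in Tfh5 minus Th1. Each of these changed its call or sign at least once. Fewer libraries allow fewer regroupings, and the cause of the changes was not tested. The number of genes that passed in each list, and the 3 genes of similar pattern under Spearman's rho, gave 748 unchanged values and 38 that moved. A number counted as unchanged within 1.5 times of the reported one, and a set of 3 if most of its genes were shared. Calls of single list genes were not followed. Every library held at least 95 counts of each of the 6 genes, and the small groups limit the ratio tests.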

Other observations

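Of 5 tested nuclear receptor genes that are partners or relatives of the Nr4a receptors, 2 passed in Tfh5 against TfhA (57.5% of all tested genes), both higher, 4 in TfhA against Th1 (44.8%), all lower, and 3 in Tfh5 against Th1 (64.6%), 1 higher and 2 lower. These shares were below those of all tested genes in the comparisons with Tfh5. Rxra, the retinoid X receptor with which Nr4a1 and Nr4a2 can pair, averaged 5.54 ± 1.68 CPM in Tfh5, 7.61 ± 0.274 in TfhA and 15.4 ± 2.62 in Th1. Rara, the retinoic acid receptor, averaged 72.3 ± 7.68 CPM in Tfh5, 21.99 ± 2.17 in TfhA and 58.3 ± 7.19 in Th1, 3.28-fold higher in Tfh5 than in TfhA (adjusted p = 6.35e-12 in edgeR).

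Of 9 heat shock and handling genes, 0 were higher and 7 lower in Tfh5 than in TfhA (27.4% and 30.1% of all tested genes), 2 higher and 2 lower in TfhA than in Th1, a share near that of all tested genes (44.8%), and 2 higher and 5 lower in Tfh5 than in Th1 (31.5% and 33%). Hsp90aa1, a chaperone gene, averaged 23.99 ± 6.61 CPM in Tfh5, 71.4 ± 4.32 in TfhA and 73.2 ± 4.89 in Th1.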
